A study of Homo sapiens with 48 samples.

Results

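Human cells that divide copy their DNA, pass through G2 and then separate the copies in mitosis, and the transcripts of the proteins that carry out the last steps form a well known gene programme of proliferating cells. The 39 genes described here belong to that programme and were taken by name from the 61815 genes of the count table, in a choice made with earlier results of these data known. They were followed in 22Rv1, a human prostate carcinoma cell line that grows with reduced dependence on androgen, and all 39 passed the filter on low counts, the lowest count of any of them in any library being 176. RNA-seq had been made in 48 libraries, 16 groups of 3, from 6 cell lines. SNX631, an inhibitor of the Mediator kinases CDK8 and CDK19, had been given at 500 nM for 72 h, and its vehicle was 0.1% DMSO.

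The parental cells (Rv1-WT) and a subline carrying a lentiviral firefly luciferase (Rv1-Luc) were grown in 10% fetal bovine serum (FBS) or 10% charcoal-stripped serum (CSS), from which steroids including androgens have been depleted, each with vehicle or SNX631. The remaining lines came from Rv1 cells in which both CDK8 and CDK19 had been knocked out with CRISPR (dKO) and into which 1 kinase was put back by lentivirus. These lines were dKO-8 with wild type CDK8, dKO-8M with kinase-dead CDK8 (D173A), dKO-19 with wild type CDK19 and dKO-19M with kinase-dead CDK19 (D173A). They were grown in FBS alone, with vehicle or SNX631. The CDK8 lines came from knockout cells that already carried an insert-free lentiviral vector, and the CDK19 lines from the knockout cells themselves. CSS cultures had been passaged once in CSS beforehand and seeded at 300000 cells per well against 200000 for FBS cultures, so the serum, the time in it and the density cannot be told apart. The dKO derivatives all come from the same knockout, express the returned kinase from a vector, and 1 line stands for each genotype, so a difference between them cannot be told apart from a difference between lines. The 3 cultures of a group are replicates of a line, and the p-values measure the spread between such cultures.

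Entry into mitosis is driven by CDK1 bound to cyclins A2, B1 and B2 (CCNA2, CCNB1, CCNB2) and released by the phosphatase CDC25C. The transcription factor FOXM1 acts on late cell cycle promoters together with the MYBL2-MuvB complex, while the DREAM complex holds the same promoters down in resting cells. Aurora kinases (AURKA, AURKB), PLK1 and NEK2 drive centrosome separation and spindle assembly, and survivin (BIRC5) works with Aurora B at centromeres. The spindle checkpoint (MAD2L1, BUB1, BUB1B, TTK) holds back the anaphase-promoting complex (APC/C), whose activator is CDC20, whose ubiquitin-conjugating enzyme is UBE2C and whose target securin (PTTG1) guards sister chromatids. Kinetochore proteins (NDC80, NUF2, SPC25, CENPA, CENPE, CENPF), spindle proteins and motors (KIF11, KIF2C, KIF4A, TPX2, NUSAP1, HMMR, DLGAP5), the midzone and cytokinesis group (PRC1, KIF20A, KIF23, KIF14, ECT2, ANLN), topoisomerase II alpha (TOP2A) and the chromosome surface protein Ki-67 (MKI67) complete the set. The genes were grouped by these roles into 6 for entry, 5 for the mitotic kinases, 7 for the checkpoint and APC/C, 6 for the kinetochore, 7 for the spindle, 6 for cytokinesis and 2 for chromosomes.

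The promoters of such genes are known for 2 short elements, the cell cycle genes homology region (CHR, TTTGAA), which the DREAM and MuvB complexes contact, and the CCAAT box bound by NF-Y. RefSeq promoters (GRCh38.p14, 250 bases before to 50 after the start site) were at hand for 33 of the 39 genes. In this window TTTGAA or its reverse complement TTCAAA occurred for 24 of 33 genes, against 13.8% of the tested genes that have a promoter in the table and 15.2% of all 35116 promoters. CCAAT or ATTGG occurred for 27 of 33, against 42.9% of tested genes and 34.6% of all promoters. Before the start site alone TTTGAA was found for 18 of 33 and CCAAT for 27. The variant TTCGAA, its own reverse complement, was found for 2 of 33 genes (2.24% of tested genes, 1.45% of all promoters). The forkhead core TGTTTA or TAAACA was found for 3 (10.6% of tested genes, 12.3% of all promoters). The E2F words TTTGGCGC and TTTCCCGC, also read on both strands, were each found for 1. They occurred for 1.31% and 3.13% of tested genes and in 0.652% and 1.63% of all promoters. TTTGAA and CCAAT occurred together for 20 genes, and neither was present for CENPE and KIF2C. These are matches of letters in a window and not sites of binding.

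The 200 bases before the start site are shown, 5′ to 3′ on the plus strand of GRCh38.p14, for the kinase CDK1, its B-type cyclins and PLK1, since the members with and without the CHR letters, and with 1 or several CCAAT words, can be compared in them. Capitals mark TTTGAA and CCAAT.
CDK1 chr10:60778131-60778330: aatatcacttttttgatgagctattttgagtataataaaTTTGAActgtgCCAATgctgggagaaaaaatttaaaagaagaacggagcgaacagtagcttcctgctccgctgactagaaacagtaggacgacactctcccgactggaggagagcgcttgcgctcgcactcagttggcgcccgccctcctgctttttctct
CCNB1 chr5:69166950-69167149: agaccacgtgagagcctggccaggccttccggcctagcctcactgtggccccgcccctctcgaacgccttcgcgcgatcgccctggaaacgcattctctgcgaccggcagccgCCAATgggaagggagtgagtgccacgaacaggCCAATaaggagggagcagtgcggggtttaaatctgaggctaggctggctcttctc
CCNB2 chr15:59104946-59105145: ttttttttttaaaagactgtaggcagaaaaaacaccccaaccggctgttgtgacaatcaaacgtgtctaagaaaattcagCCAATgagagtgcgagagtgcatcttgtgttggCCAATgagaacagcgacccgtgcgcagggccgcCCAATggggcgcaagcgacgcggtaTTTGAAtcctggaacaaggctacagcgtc
PLK1 chr16:23678689-23678888: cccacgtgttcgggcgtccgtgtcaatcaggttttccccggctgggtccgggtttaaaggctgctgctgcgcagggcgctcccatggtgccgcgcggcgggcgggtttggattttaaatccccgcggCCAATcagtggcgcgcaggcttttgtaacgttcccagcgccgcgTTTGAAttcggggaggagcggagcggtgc
CCNB2 carried 3 CCAAT words followed by a single TTTGAA near the start site. PLK1 showed the same order with 1 of each, CDK1 held 1 of each at the far end of the stretch, and CCNB1 held 2 CCAAT words and no TTTGAA. CDK1 has 2 start sites in the table and the first is shown. At the second, TTTGAA began at −69 and −13 from the start site and CCAAT, read on the reverse strand, at −78 and −46.

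Depth was 13.2 to 31.5 M counts a library, and the 12 Rv1-WT libraries (13.2 to 18.2 M) lay below all others, so depth and line cannot be told apart in comparisons of Rv1-WT with Rv1-Luc. Levels are in CPM, counts divided by the TMM-scaled library size in M. For the sums of cell type markers alone, counts were divided by the unscaled library total. Luminal prostate markers summed to 2651 to 5786 CPM, against 2.91 to 28.0 for fibroblast, 0 to 0.942 for endothelial and 0.322 to 1.63 for leukocyte markers. The 3 plasma cell markers were at 3 counts or fewer in every library outside Rv1-Luc (at most 0.114 CPM in sum) and summed to 8.90 to 21.6 CPM in Rv1-Luc in FBS with vehicle, 1.28 to 8.47 in FBS with SNX631, 1.57 to 3.44 in CSS with vehicle and 3.29 to 15.8 in CSS with SNX631. Their sums thus varied between and within the Rv1-Luc groups, some of whose ranges overlapped. Their part in the comparisons that use Rv1-Luc was not tested. With vehicle in FBS, CDK8 averaged 26.8 to 28.5 CPM in the lines with no knockout, and returned CDK8 brought it to 68.6 (wild type) and 123 (D173A). CDK19 averaged 116 to 149 CPM in the lines with no knockout and 510 (wild type) and 332 (D173A) where it was returned. The knocked out genes still gave counts (27.1 to 27.7 CPM of CDK8 in the CDK19 lines), so their transcript does not check the knockout. Replicate 1 of dKO-19M with vehicle stood apart from replicates 2 and 3 (chi-square per degree of freedom 16.51 and 15.97), and replicate 1 of Rv1-Luc in FBS with vehicle from replicate 2 (9.15). Counts that rest on these are given with and without them. For BUB1B, NUSAP1, PRC1, CENPA, CDK1, CENPE, PLK1 and TOP2A over 20% of libraries held a fractional count, that is, reads shared with another gene or position, so their levels carry that uncertainty.

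Averaged over all libraries and divided by exonic length, TOP2A was the most abundant member at 102 CPM per kilobase, followed by CDC20 (95.04), UBE2C (87.6) and CCNB1 (86.7). The least abundant were SPC25 (8.56), the phosphatase CDC25C (8.85), KIF14 (10.8) and CENPE (11.3), and the median of the 39 was 33.8 CPM per kilobase. The order differed between lines. In Rv1-WT in FBS with vehicle CDC20 led (91.4), before CCNB1 (81.8), TOP2A (77.9) and UBE2C (71.2). The geometric mean level of the 39 genes in CPM, which weights each gene alike, spanned a narrow range. It was 116 CPM ± 1.72 (SD, n = 3) in Rv1-WT in FBS with vehicle, lowest in Rv1-WT in CSS with SNX631 (105 ± 2.99) and highest in dKO-19 with SNX631 (154 ± 0.821). The 8 groups of dKO derivatives averaged 130 to 154 CPM and the 8 groups of Rv1-WT and Rv1-Luc 105 to 120 CPM. These sets of lines were not compared by a test.

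**Figure D1:**
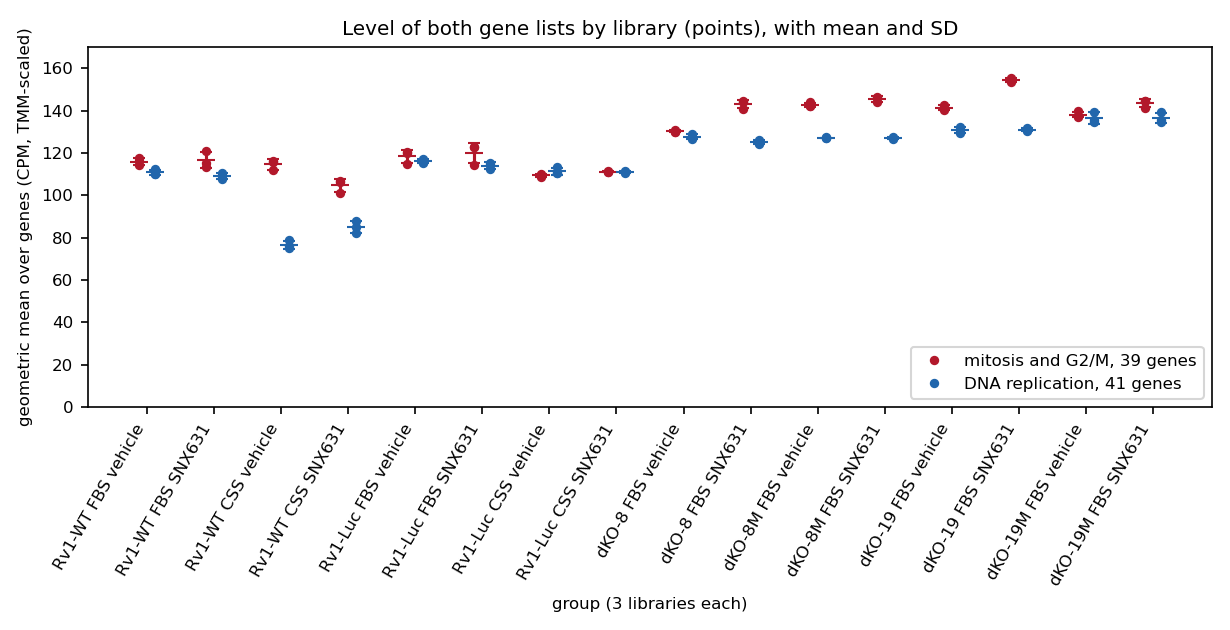
Geometric mean CPM (vertical axis) of the 39 mitotic genes and of 41 DNA replication genes in every library of the 16 groups, 1 point a library with the mean and SD of 3. The mitotic genes lay at 116 CPM in Rv1-WT in FBS with vehicle and 115 in CSS, while the replication genes lay at 111 and 76.5 CPM in the same libraries.

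Below, a gene is said to have risen or fallen where its false discovery rate (FDR, edgeR quasi-likelihood test, adjusted over 20009 genes) was under 0.05, and to be called where the FDR was under 0.01 and the change over 1.5-fold, the limits the study used for differentially expressed genes. Changes are log2 fold changes ± SE from 3 against 3 libraries unless stated. A member outside the naming rule given under the processing was named after its values were seen.

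Charcoal-stripped serum did not shift the mitotic genes of Rv1-WT in 1 direction. With vehicle, 14 of the 39 rose and 16 fell, where 21.8% and 23.1% of all tested genes did, and the median change was −0.04. In RNA from whole cultures a smaller share of cells in G2 and mitosis cannot be told apart from less transcript per cell. Only the checkpoint gene MAD2L1 was called (10.9% of tested genes were called in either direction). MAD2L1 measured 158, 155 and 159 CPM in the 3 FBS libraries and 87.8, 94.4 and 93.0 CPM in the 3 CSS libraries. All CSS libraries lay far below all FBS libraries, a change of −0.78 ± 0.0434 (FDR 1.34e-22). CCNA2, the cyclin of S phase and early mitosis, measured 170, 170 and 172 CPM in FBS and 111, 113 and 119 CPM in CSS, a change of −0.57 ± 0.0422 (FDR 1.37e-17). CDC20 fell from 182, 179 and 197 CPM to 131, 138 and 141 CPM (−0.45 ± 0.0491, FDR 1.62e-11), without overlap. FOXM1 fell by 0.28 on the log2 scale, from a mean of 303 to 249 CPM, and CDK1 fell by 0.19, from 167 to 147 CPM.

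Rises and falls were spread unevenly over the roles. In the checkpoint and APC/C group 5 of 7 members fell, none rose and the median change was −0.31, the members that fell being MAD2L1, CDC20, the checkpoint kinase BUB1B (−0.35), securin PTTG1 (−0.31) and UBE2C (−0.25). In the kinetochore group 4 of 6 rose and 1 fell, with a median of 0.34. The risers were the centromeric histone CENPA (0.45), the microtubule binding subunit NDC80 (0.39), CENPF (0.37) and the motor CENPE (0.30), and NUF2, the partner of NDC80, fell by 0.13 on the log2 scale, a fall lost in 2 leave-outs. Of the mitotic kinases and survivin 3 rose, PLK1 (0.27), AURKA (0.31) and NEK2 (0.31), and 2 fell. PLK1 measured 116, 120 and 115 CPM in FBS and 134, 143 and 146 CPM in CSS. AURKA measured 65.0, 67.2 and 63.9 CPM in FBS and 76.7, 80.8 and 85.0 CPM in CSS. For both, every CSS library was above every FBS library. The entry group split inside itself, since CCNB2 (0.39) and CDC25C (0.43) rose while CCNA2, FOXM1 and CDK1 fell and CCNB1 measured 0.08, short of the threshold. In the cytokinesis group 3 of 6 fell and none rose, the spindle group had 3 rises and 2 falls of 7, and TOP2A (0.19) and MKI67 (0.22) both rose. The rise of MKI67 was lost without 4 of the 6 libraries in turn.

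**Figure D2:**
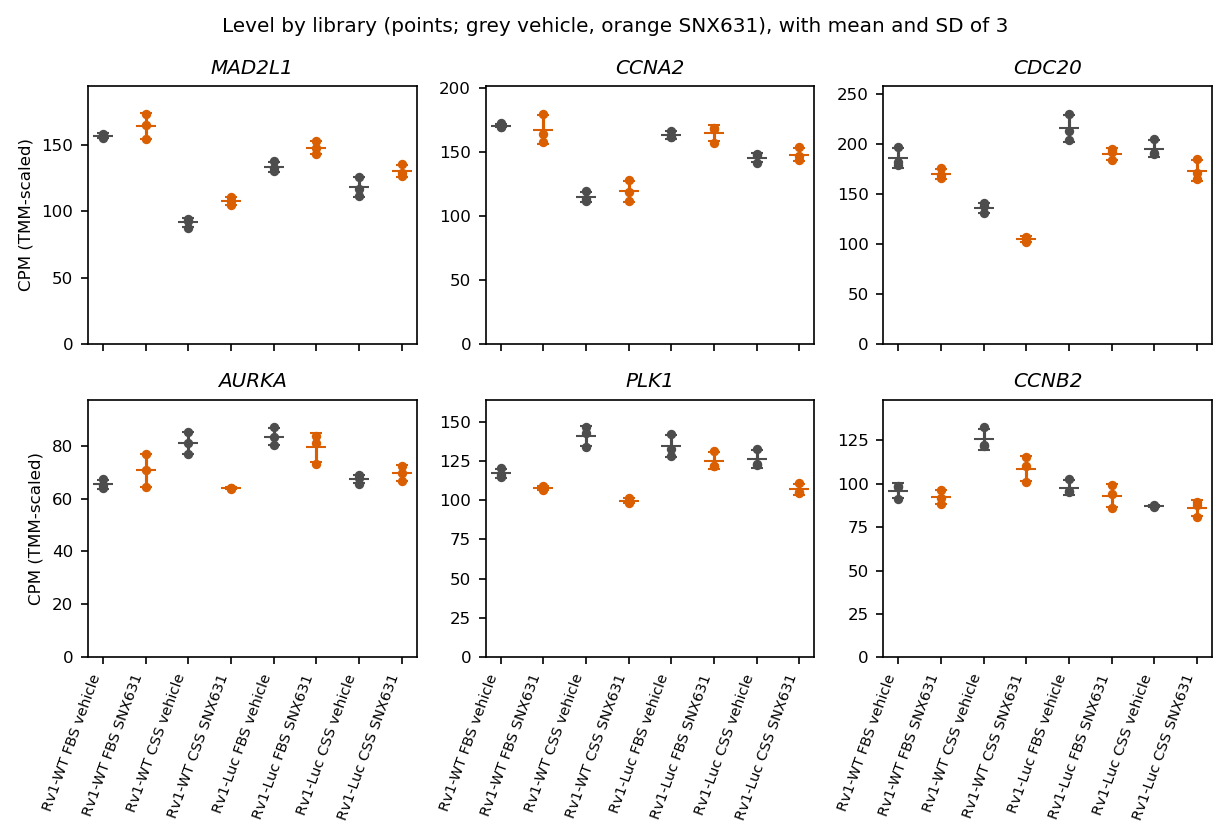
CPM per library (vertical axis) of MAD2L1, CCNA2, CDC20, AURKA, PLK1 and CCNB2 in Rv1-WT and Rv1-Luc under FBS or CSS with vehicle or SNX631, grey for vehicle and orange for SNX631, 1 point a library with the mean and SD of 3. MAD2L1 dropped from 157 to 91.7 CPM on average in Rv1-WT with vehicle and from 134 to 118 CPM in Rv1-Luc.

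Other cell cycle lists were counted in the same libraries. Of 41 DNA replication genes 38 fell and none rose in Rv1-WT with vehicle, 15 were called lower, and the median was −0.55. PCNA, the sliding clamp, fell by 0.87 on the log2 scale, as did the flap endonuclease FEN1 and the ligase LIG1. Among 50 further G2/M genes 12 rose and 24 fell (median −0.10), led by the condensin subunit NCAPH (−0.67) and the kinetochore proteins ZWINT (−0.62) and SPC24 (−0.78). APC/C subunits gave 3 rises and 8 falls of 14, and the regulators of RB, E2F and DREAM 6 rises and 10 falls of 21, with E2F1 at −0.64. Of 13 cell cycle inhibitors 5 rose and 6 fell, and the 2 called were CDKN1B (p27), at 0.72, and GADD45A, at 0.85.

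Under SNX631 most of the serum changes of Rv1-WT that passed were falls. There 5 members rose and 22 fell (19.5% and 21.1% of tested genes), the median was −0.14, and MAD2L1 (−0.61 ± 0.0427, FDR 3.87e-18) and CDC20 (−0.70 ± 0.05, FDR 8.73e-18) were called, where 7.83% of all genes were. CCNA2 changed by −0.49 ± 0.042 (FDR 1.05e-14). In the checkpoint and APC/C group 6 of 7 fell and in cytokinesis 5 of 6. Only 1 member was called without FBS SNX631 replicate 2 or CSS SNX631 replicate 1.

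In Rv1-Luc CSS lowered mitotic genes and raised none. With vehicle no member rose and 14 fell, against 7.33% and 6.67% of tested genes, with a median of −0.11 and none called (1.49% of tested genes). AURKB, the kinase of the chromosomal passenger complex, changed by −0.44 ± 0.0503 (FDR 1.21e-09), AURKA by −0.31 ± 0.0486 (FDR 3.42e-06) and BIRC5 by −0.22 ± 0.0457 (FDR 4.4e-04). AURKA measured 86.9, 80.2 and 83.1 CPM in FBS and 65.6, 67.7 and 68.8 CPM in CSS, with no overlap. MAD2L1 measured 131, 133 and 138 CPM in FBS and 126, 117 and 112 CPM in CSS. The count of falls was 9 without FBS vehicle replicate 3 or CSS vehicle replicate 3 and 16 without FBS vehicle replicate 1, the library that stood apart. Of the falling genes 9 also fell in Rv1-WT, 64.3% of the Rv1-Luc list and 56.2% of the Rv1-WT list. The overlap to be had by chance was not computed. Among the 9, the fall in Rv1-Luc was lost in 4 of 6 leave-outs for CDC20 and in 3 each for CDK1 and PTTG1. In Rv1-WT the falls of AURKB, HMMR and NUF2 were lost in 2 of 6 each. With SNX631 12 members fell and none rose (6.61% and 6.08% of tested genes), AURKB alone was called (−0.66 ± 0.0499, FDR 7.38e-16, 1.51% of tested genes called), and PLK1 (−0.23) and MAD2L1 (−0.18) followed. That count was 7 without FBS SNX631 replicate 2 and 6 without FBS SNX631 replicate 3 or CSS SNX631 replicate 2. The replication genes gave 2 rises and 11 falls of 41 in Rv1-Luc with vehicle (median −0.08), and the further G2/M genes 23 falls of 50 and no rise. GADD45A, called higher in Rv1-WT, was called lower in Rv1-Luc (−0.81). The plasma cell markers were also lower in CSS with vehicle (1.57 to 3.44 CPM) than in FBS with vehicle (8.90 to 21.6 CPM) in this line, and their part was not tested.

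The difference between the lines was tested directly as the CSS change in Rv1-Luc minus that in Rv1-WT, with vehicle, over 12 libraries. It passed an FDR of 0.05 for 21 members, 7 with a higher and 14 with a lower value in Rv1-Luc (18.7% and 15.4% of tested genes), and 2 were called (8.65%). For MAD2L1 the difference was 0.60 ± 0.0599 (FDR 2.75e-12) and for AURKA −0.62 ± 0.0709 (FDR 2.37e-10). CCNB2 differed by −0.55 ± 0.0733 (FDR 1.39e-08). The 7 higher were members that had fallen in Rv1-WT, CCNA2 (0.41), FOXM1 (0.24), BUB1B (0.29), CDC20 (0.31), ANLN (0.26) and ECT2 (0.19, lost in 2 leave-outs of 12) beside MAD2L1. All 4 kinetochore genes that had risen in Rv1-WT were among the 14 lower, with PLK1 (−0.36) and NEK2 (−0.44). The difference contains the Rv1-WT change itself, from the same Rv1-WT libraries and with the opposite sign. This match with the falls and rises of Rv1-WT is therefore partly built in. Of the replication genes 36 of 41 differed, all with higher values in Rv1-Luc (median 0.45, 14 called). A single member was called without Rv1-WT CSS vehicle replicate 1, Rv1-WT CSS vehicle replicate 3 or Rv1-Luc CSS vehicle replicate 1. Leaving out Rv1-Luc FBS vehicle replicate 1 left the count at 21. The 2 lines differed in depth as given above. In FBS with vehicle they already differed in 21 of the members, where 24% of tested genes were higher and 28.4% lower in Rv1-Luc. That comparison shares its FBS vehicle libraries, with the opposite sign, with the difference tested here.

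**Figure D3:**
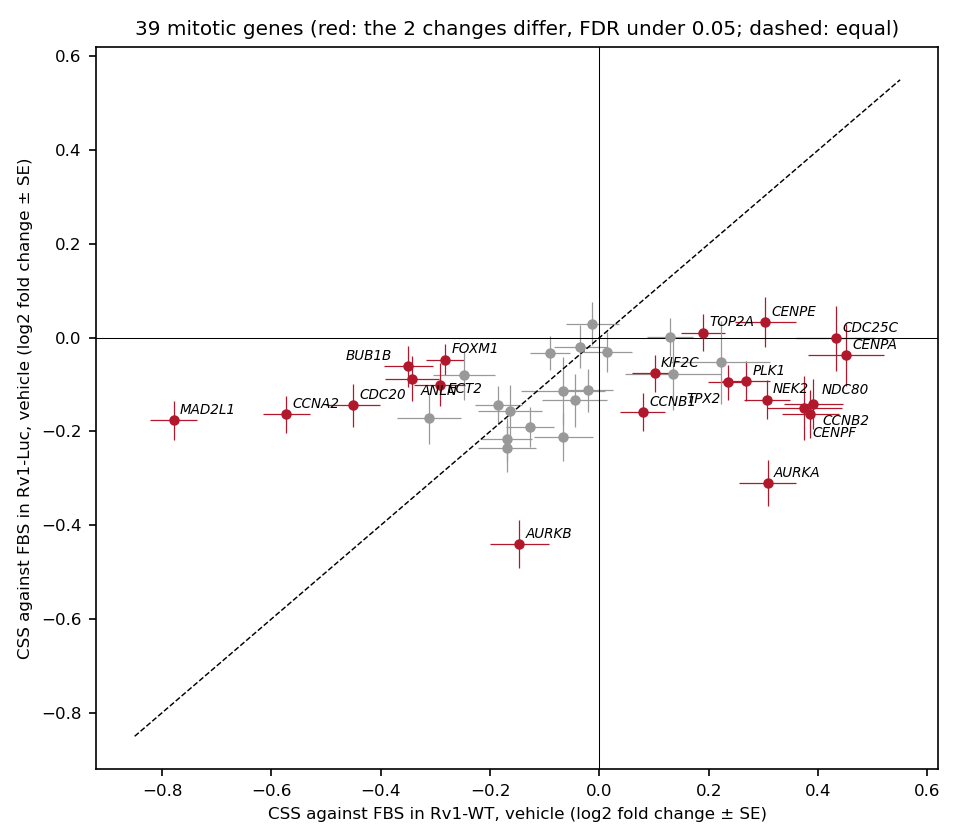
Log2 change ± SE of each of the 39 genes from FBS to CSS with vehicle, in Rv1-WT (horizontal axis) and Rv1-Luc (vertical axis), with a dashed line of equality. The 21 red genes differed between the lines at FDR under 0.05, and MAD2L1 (−0.78 and −0.18) and AURKA (0.31 and −0.31) lie farthest from the line.

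In Rv1-WT in FBS mitotic genes changed with SNX631 about as often as tested genes in general. Of the 39, 3 rose and 3 fell (7.67% and 6.79% of tested genes), none was called (2.39%), and the median was 0.01. KIF20A, the kinesin of the central spindle, changed by −0.31 ± 0.0497 (FDR 2.55e-06), the hyaluronan receptor and spindle protein HMMR by 0.23 ± 0.0519 (FDR 8.2e-04) and BIRC5 by 0.18 ± 0.0470 (FDR 0.0050), the last lost without FBS vehicle replicate 1. KIF20A measured 83.8, 89.2 and 88.1 CPM with vehicle and 70.1, 76.8 and 64.0 CPM with SNX631, without overlap. CCNB1 (−0.13) and TOP2A (0.14) passed with all libraries, and each was lost without 3 of the 6 in turn.

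In CSS the inhibitor lowered mitotic genes of Rv1-WT. Here 16 fell and 1 rose, where 12.2% and 14.2% of tested genes did, and the median was −0.07, with no member called (4.23% of tested genes). PLK1 measured 134, 143 and 146 CPM with vehicle and 99.2, 102 and 98.1 CPM with SNX631, a change of −0.50 ± 0.0437 (FDR 3.51e-14). KIF20A measured 78.8, 87.3 and 88.6 CPM with vehicle and 55.0, 61.5 and 56.0 CPM with SNX631, a change of −0.56 ± 0.0496 (FDR 6.18e-14). CCNB1 measured 221, 217 and 225 CPM with vehicle and 172.5, 170 and 181 CPM with SNX631, a change of −0.34 ± 0.0414 (FDR 1.42e-09). In all 3 genes every treated library lay below every vehicle library. CDC20 (−0.38), AURKA (−0.34) and MKI67 (−0.39) fell as well, and CENPA fell by 0.53 on the log2 scale. The single riser was MAD2L1 (0.24). This comparison shares the CSS vehicle libraries, with the opposite sign, with the serum comparison in vehicle. CDK1 (−0.01), TOP2A (−0.02) and FOXM1 (0.02) did not pass the test. Falls came from every role group, 3 of 6 for entry, 2 of 5 for the kinases, 2 of 7 for the checkpoint, 3 of 6 for the kinetochore, 3 of 7 for the spindle, 2 of 6 for cytokinesis and 1 of 2 for chromosomes. Among these, the fall of CDC25C was lost in all 6 leave-outs, that of CENPE in 3 and that of KIF11 in 2. A single member was called without CSS vehicle replicate 1 and 2 without CSS SNX631 replicate 2.

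In the same comparison 25 of 41 replication genes rose and 2 fell (median 0.17), with RFC3 of the clamp loader at 0.39, thymidylate synthase TYMS at 0.33 and the ribonucleotide reductase subunit RRM1 at 0.23. Further G2/M genes gave 6 rises and 16 falls of 50. CDKN1A (p21), an inhibitor of cyclin-dependent kinases, was called lower at −0.59 ± 0.0501.

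The dependence of the SNX631 change on serum was tested in Rv1-WT over 12 libraries. For 7 members the change was lower in CSS than in FBS and for none higher (0.93% and 2.2% of tested genes), none being called (0.295%). PLK1 differed by −0.38 ± 0.0624 (FDR 3.5e-05) and AURKA by −0.45 ± 0.0732 (FDR 3.6e-05), and both passed without any single library. AURKA with SNX631 measured 64.3, 76.7 and 70.9 CPM in FBS and 64.2, 64.1 and 63.4 CPM in CSS, so the treated FBS libraries lay just above the treated CSS libraries, the reverse of the order with vehicle. CENPF (−0.41, FDR 0.0111) was lost without CSS SNX631 replicate 2 and TPX2, the activator of Aurora A, in 2 leave-outs. CCNB1 (−0.21), CDC20 (−0.25) and KIF20A (−0.25) were each lost without 8 of the 12 libraries in turn. The count was 4 without FBS vehicle replicate 1, FBS SNX631 replicate 1, CSS vehicle replicate 2 or CSS SNX631 replicate 1. Of the replication genes 13 of 41 were higher in CSS and none lower.

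In Rv1-Luc small rises outnumbered falls with SNX631 under both sera. In FBS 9 rose and 3 fell (10.9% and 9.45% of tested genes), with a median of 0.02 and none called (3.67%). AURKB changed by 0.30 ± 0.0488 (FDR 2.22e-06), the microtubule depolymerase KIF2C by 0.20 ± 0.0394 (FDR 6.6e-05) and HMMR by 0.24 ± 0.0506 (FDR 2.5e-04). Without FBS vehicle replicate 1 the 12 changes became 9, and the fall of CDC20 (−0.18) was lost. In CSS 9 rose and 4 fell (12% and 11.8% of tested genes), with a median of 0.02 and none called (4.06%), led by HMMR (0.30 ± 0.0515, FDR 5.8e-06), KIF20A (−0.27 ± 0.0468, FDR 9.4e-06) and PLK1 (−0.24 ± 0.0427, FDR 1.5e-05). PLK1 in CSS measured 122, 133 and 123 CPM with vehicle and 105, 105 and 111 CPM with SNX631, without overlap. The 4 that fell in Rv1-Luc in CSS, CDC20, CENPA, KIF20A and PLK1, were all among the 16 that fell in Rv1-WT in CSS, 25% of that list. Serum did not change the SNX631 effect for any member in Rv1-Luc at FDR 0.05 (0.18% of tested genes higher and 0.33% lower). By edgeR 4 members had an unadjusted p under 0.05, the lowest being AURKB (−0.22, FDR 0.193), CENPA (−0.23, FDR 0.385) and PLK1 (−0.14, FDR 0.441). AURKB passed without Rv1-Luc FBS vehicle replicate 1. Whether the SNX631 effect differed between Rv1-WT and Rv1-Luc was not tested. The plasma cell markers moved with the drug in this line, lower in FBS (8.90 to 21.6 against 1.28 to 8.47 CPM) and mostly higher in CSS, with an overlap (1.57 to 3.44 against 3.29 to 15.8 CPM), and their part was not tested.

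When CSS and SNX631 were combined and set against FBS with vehicle, 6 members rose and 20 fell in Rv1-WT (22.8% and 22.9% of tested genes), with a median of −0.17. CDC20 was the most reduced member, from 186 to 105 CPM on average (−0.83 ± 0.0499, FDR 3.07e-21). It was called with KIF20A (−0.60), where 11.8% of tested genes were called. MAD2L1 (−0.54) and CCNA2 (−0.52) followed by p. CDC20 in the 3 combined libraries measured 105, 107 and 102 CPM, below all libraries of the other 3 Rv1-WT groups. A single member was called without FBS vehicle replicate 2, CSS SNX631 replicate 1 or CSS SNX631 replicate 3. In Rv1-Luc 3 rose and 13 fell (12.8% and 11.6%), with a median of −0.09 and none called (4.14%), led by PLK1 (−0.33 ± 0.0426), AURKB (−0.36 ± 0.0505) and CDC20 (−0.32 ± 0.0472). Without FBS vehicle replicate 1 the 16 changes became 18. These comparisons share their FBS vehicle libraries with the serum and drug comparisons above.

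In the lines with a returned active kinase SNX631 raised mitotic genes in 1 direction. In dKO-8 22 of 39 rose and none fell, where 6.13% and 7.39% of tested genes did, with a median of 0.16 and none called (1.71%). Treated and vehicle libraries did not overlap for 34 of the 39, against 35.4% of tested genes. CCNB1 measured 201, 198 and 196 CPM with vehicle and 234, 232 and 237 CPM with SNX631, a change of 0.24 ± 0.0404 (FDR 7.9e-06). AURKA measured 73.6, 68.5 and 71.6 CPM with vehicle and 85.4, 82.8 and 90.2 CPM with SNX631, a change of 0.27 ± 0.0487 (FDR 2.9e-05). HMMR changed by 0.26 ± 0.0499 (FDR 1.1e-04). All 3 treated libraries lay above all 3 vehicle libraries for CCNB1 and AURKA. CDC20 rose by 0.18 and PLK1 by 0.16, the latter lost without dKO-8 vehicle replicate 3. The rises were spread over the roles, 3 of 6 for entry, 4 of 5 for the kinases, 4 of 7 for the checkpoint, 2 of 6 for the kinetochore, 5 of 7 for the spindle and 4 of 6 for cytokinesis, with neither TOP2A (0.07) nor MKI67 (0.17) passing.

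In dKO-19 18 of 39 rose and none fell (9.31% and 11.3% of tested genes), with a median of 0.13 and none called (3.41%), and the groups did not overlap for 27 genes, against 37.7% of tested genes. CDK1 measured 258, 276 and 268 CPM with vehicle and 327, 339 and 336 CPM with SNX631, a change of 0.32 ± 0.0404 (FDR 4.6e-09). NUSAP1, a microtubule bundling protein, changed by 0.29 ± 0.0448 (FDR 9.2e-07) and HMMR by 0.32 ± 0.0497 (FDR 1.1e-06). AURKA (0.24) and CCNB1 (0.18) rose, and PLK1 (0.04), CDC20 (0.05), MKI67 (0.06) and FOXM1 (0.02) did not pass. Over the leave-outs the count was 15 to 17 in dKO-19 and 19 to 21 in dKO-8. In dKO-19 the rises of TOP2A and UBE2C were each lost in 5 of 6. The lists of dKO-8 and dKO-19 had 15 genes in common, 68.2% and 83.3% of each. How many genes lists of these sizes would share by chance was not computed. The 15 include UBE2C, and CDK1, whose rise in dKO-8 was lost in 4 of 6 leave-outs. Between the lines the drug effect differed for 1 member, CDK1 (0.20 ± 0.0573 higher in dKO-19, FDR 0.0221), where 2.03% of tested genes were higher, and it was lost without 6 of the 12 libraries in turn. BIRC5 (−0.14, FDR 0.251) and PLK1 (−0.12, FDR 0.290) had the next lowest p.

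**Figure D4:**
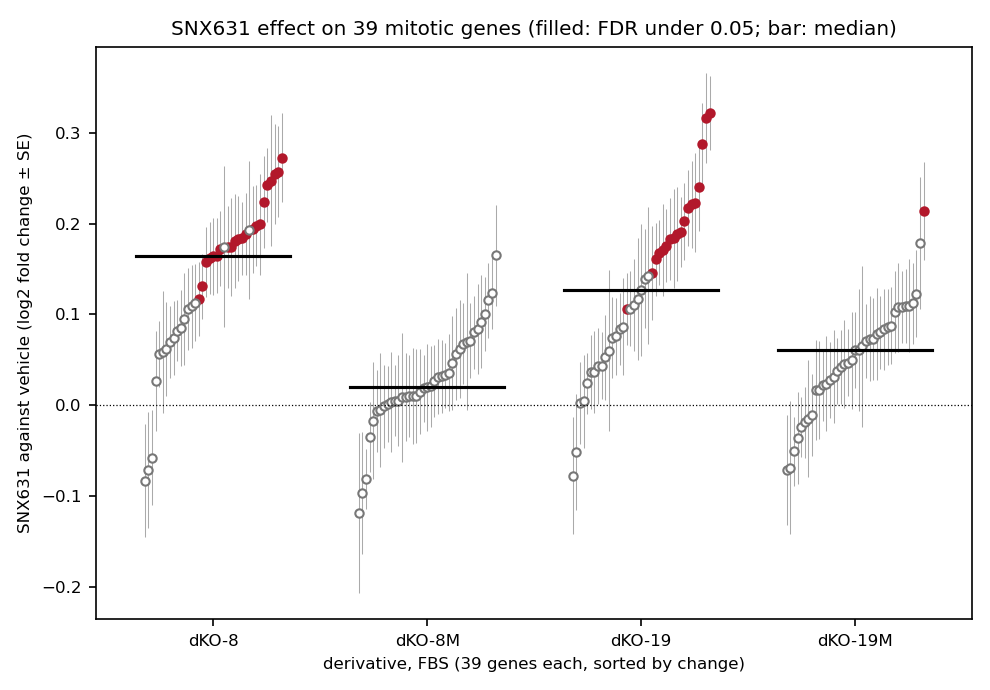
Log2 change of each of the 39 genes with SNX631 against vehicle (vertical axis) in dKO-8, dKO-8M, dKO-19 and dKO-19M, 1 point a gene, filled where FDR was under 0.05, with a bar at the median. The medians were 0.16 and 0.13 with an active kinase and 0.02 and 0.06 with a kinase-dead one.

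With a kinase-dead protein few changes passed. In dKO-8M no member passed an FDR of 0.05 by edgeR, where 0.21% of tested genes rose and 0.275% fell, and none was called (0.015%). There 5 had an unadjusted p under 0.05, the median was 0.02, and the lowest p belonged to CDK1 (0.12 ± 0.0398, FDR 0.179), PTTG1 (0.16, FDR 0.207) and MAD2L1 (0.12, FDR 0.243). The groups did not overlap for 11 of the 39, against 21% of tested genes. In a fit of these 6 libraries alone 6 members passed. In dKO-19M 1 member rose, CENPE (0.21 ± 0.0540, FDR 0.0170), where 0.92% of tested genes rose and 1.5% fell, the median was 0.06 and none was called (0.09%). None passed without dKO-19M vehicle replicate 1, the library that stood apart, or SNX631 replicate 3, and 4 passed without vehicle replicate 2. TOP2A (0.11, FDR 0.145) and MAD2L1 (0.11, FDR 0.145) came next. The groups did not overlap for 10 of the 39, against 15.6% of tested genes.

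The active and dead forms were compared directly. The log2 change with SNX631 was higher in dKO-8 than in dKO-8M for 4 members and lower for none (2.59% and 3.61% of tested genes), with a median difference of 0.12 over the 39. These were CCNB1 (0.21 ± 0.0570, FDR 0.0135), AURKA (0.25 ± 0.0686, FDR 0.0138), KIF2C (0.19 ± 0.0546, FDR 0.0194) and FOXM1 (0.16), and 17 had an unadjusted p under 0.05. FOXM1 measured 0.08 in dKO-8 and −0.08 in dKO-8M, neither passing. AURKA and KIF2C were each lost in 2 leave-outs and FOXM1 in 5 of 12. The count was 2 without dKO-8 vehicle replicate 2 or dKO-8M vehicle replicate 2, 1 without dKO-8 SNX631 replicate 3, and 20 in a fit of the 12 libraries alone. Between dKO-19 and dKO-19M the change was higher with the active kinase for 5 members and lower for none (3.94% and 5.94%), with a median difference of 0.06. These were KIF2C (0.24 ± 0.0545, FDR 0.0013), CDK1 (0.25 ± 0.0572, FDR 0.0014), NEK2 (0.19 ± 0.0586, FDR 0.0265), NUSAP1 (0.20) and HMMR (0.21). KIF2C and CDK1 passed without any single library, while HMMR was lost in 8 of 12 leave-outs and NEK2 and NUSAP1 in 5 each. The count was 3 without dKO-19M vehicle replicate 1, 2 without dKO-19M SNX631 replicate 2 and 8 without dKO-19M vehicle replicate 3. Most members that rose with an active kinase did not pass this test of the difference from the dead form.

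Among the 6 settings with an active kinase HMMR rose in 5, all but Rv1-WT in CSS. KIF20A fell in all 4 settings of Rv1-WT and Rv1-Luc and passed in neither dKO-8 nor dKO-19. In the dKO lines the further G2/M genes also rose, 16 of 50 with 2 falls in dKO-8 and 23 with none in dKO-19, such as GTSE1 (0.32) and CEP55 (0.28) in dKO-8 and CEP55 (0.41), SMC2 (0.29) and ZWINT (0.24) in dKO-19. They gave 1 rise in dKO-8M, the CDK1 binding protein CKS2 (0.22), and 4 in dKO-19M. The replication genes gave no rise and 5 falls of 41 in dKO-8 and 4 rises and 5 falls in dKO-19. CDKN1A fell in all 6 active settings, with log2 changes of −0.45 for dKO-8 and −0.67 for dKO-19, against 0.09 (FDR 0.601) in dKO-8M and −0.05 (FDR 0.655) in dKO-19M. The SNX631 effect on CDKN1A differed between the active and dead form by −0.54 for CDK8 and −0.62 for CDK19.

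**Figure D5:**
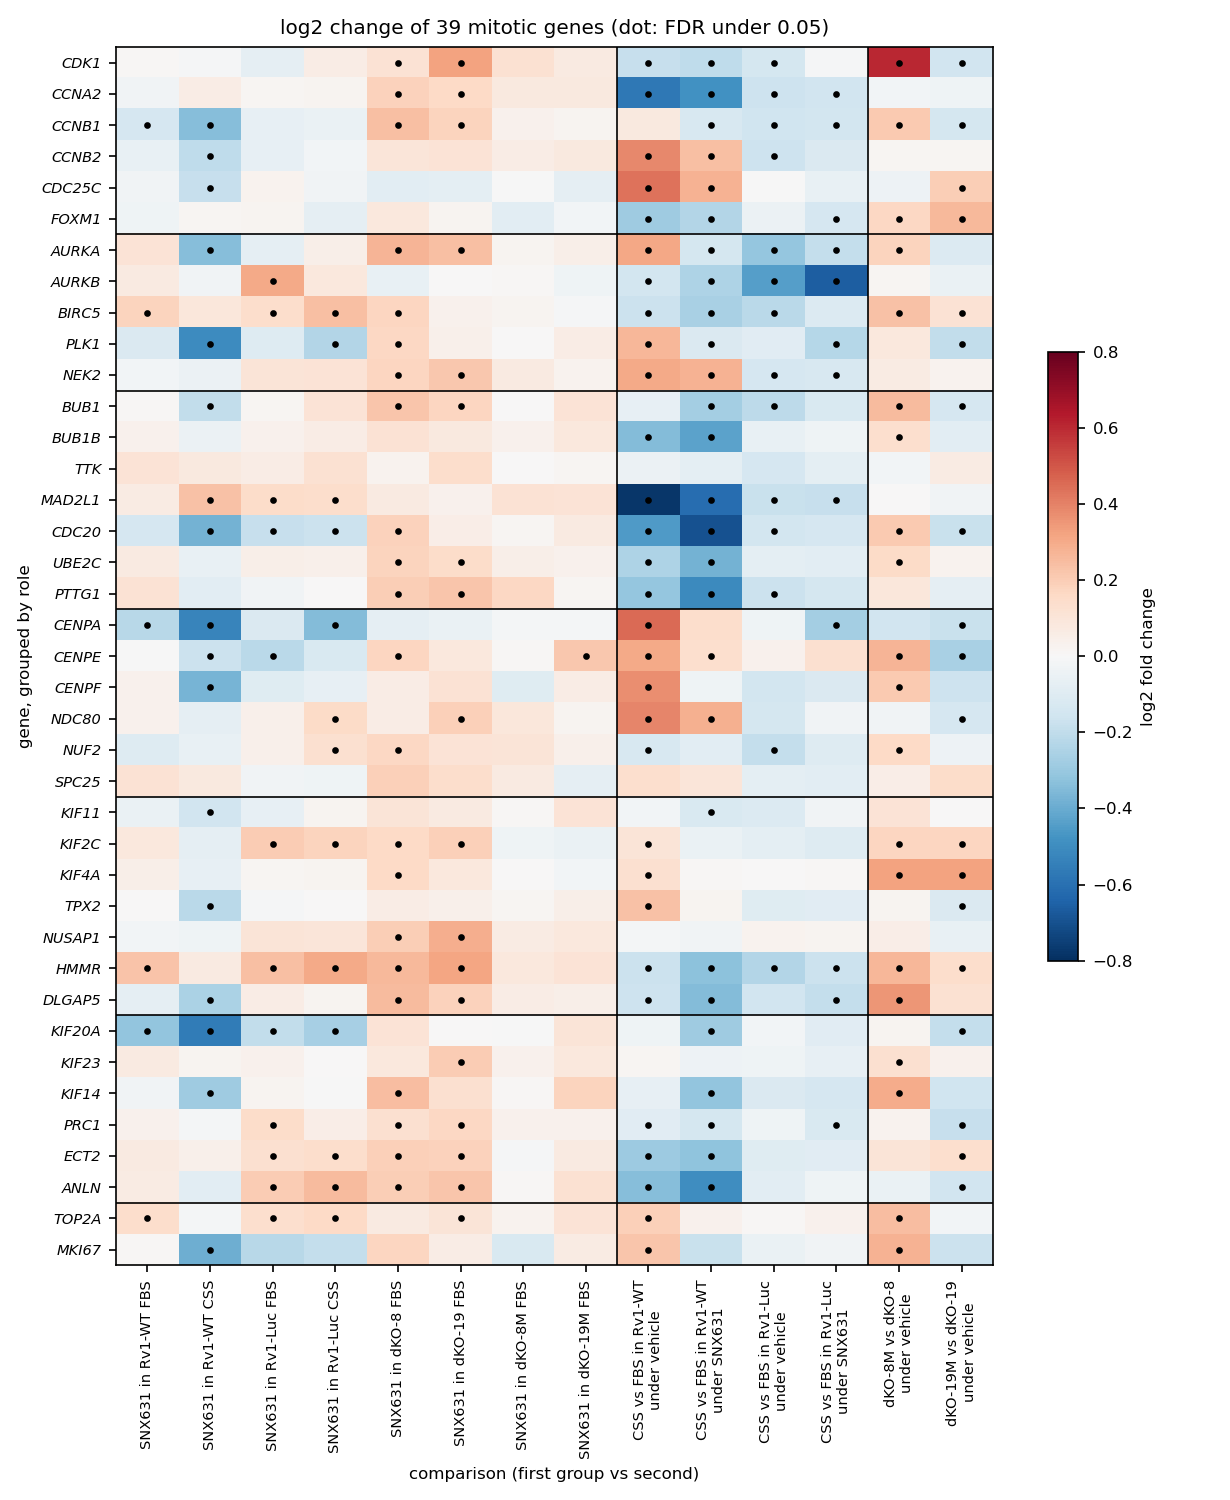
Heat map of log2 changes of the 39 genes, in rows by role, over 14 comparisons in columns (SNX631, serum, kinase-dead against active), with a dot where FDR was under 0.05. SNX631 gave 22 and 18 rises and no fall in dKO-8 and dKO-19, and CSS gave 14 rises and 16 falls in Rv1-WT.

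Without drug the dead forms were set against the active ones. In dKO-8M 20 members were higher than in dKO-8 and none lower (14.1% and 16.3% of tested genes), with a median of 0.13. CDK1 was called (7.02% of tested genes were). It measured 248, 243 and 235 CPM in dKO-8 and 375, 370 and 360 CPM in dKO-8M, a difference of 0.61 ± 0.0404 (FDR 5.06e-19). The chromokinesin KIF4A measured 133, 129 and 131 CPM in dKO-8 and 162, 162 and 167 CPM in dKO-8M (0.32 ± 0.0395, FDR 1.5e-09), and the spindle protein DLGAP5 differed by 0.35 ± 0.0553 (FDR 5.4e-07). Neither CDK1 nor KIF4A overlapped between the lines. TOP2A (0.25), MKI67 (0.28, lost in 2 leave-outs), CCNB1 (0.21), CDC20 (0.21), AURKA (0.18) and FOXM1 (0.17) were higher too, and PLK1 (0.08) did not pass. CDK1 was not called without dKO-8 vehicle replicate 3. This comparison shares the dKO-8 vehicle libraries with the drug comparison in dKO-8.

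In dKO-19M the members split, 7 higher and 12 lower than in dKO-19 (15.6% and 17.7% of tested genes), with a median of −0.05 and none called (7.6%). KIF4A measured 138, 138 and 129 CPM in dKO-19 and 159, 177 and 171 CPM in dKO-19M (0.32 ± 0.0393, FDR 8.6e-10). FOXM1 measured 364, 350 and 340 CPM in dKO-19 and 411, 424 and 425 CPM in dKO-19M (0.26 ± 0.0333, FDR 4.6e-09). PRC1, the microtubule crosslinker of the midzone, differed by −0.19 ± 0.0358 (FDR 2.7e-05). CDK1 (−0.15), CCNB1 (−0.14), PLK1 (−0.19) and CDC20 (−0.18) were lower, so CDK1 and CCNB1 stood on opposite sides in the CDK8 and CDK19 pairs. That contrast between pairs was not tested. Without dKO-19M vehicle replicate 1 the 19 differences became 16, and in a fit of these 6 libraries alone 8. MKI67 in that replicate measured 331 CPM against 477 and 480 in the others.

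Rv1-Luc and Rv1-WT in FBS with vehicle differed in 21 members, 13 higher and 8 lower in Rv1-Luc (24% and 28.4% of tested genes), with a median of 0.04 and none called (17.8%). The largest by p were the cytokinesis exchange factor ECT2 (−0.52 ± 0.0459, FDR 1.09e-14), AURKB (0.41 ± 0.0518, FDR 9.7e-10) and NEK2 (−0.33 ± 0.0425, FDR 1.4e-09). AURKA (0.35), PLK1 (0.20), CDC20 (0.21), CDK1 (0.17) and MKI67 (0.32) were higher in Rv1-Luc. The number of differences was 16 without Rv1-Luc FBS vehicle replicate 1. The plasma cell markers, at 0 in these Rv1-WT libraries, summed to 8.90 to 21.6 CPM in these Rv1-Luc libraries, and their part was not tested.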

How the data were processed

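The authors isolated RNA from cultures in triplicate, made directional NEBNext Ultra II libraries, trimmed reads with cutadapt 2.8 and, per the labels, used FastQC, STAR 2.7.2b, featureCounts and Subread 2.0.3 with GRCh38.p13 and GRCm39 named as builds. The annotation release and counting options are not given in the sources used here. The deposited values are estimated counts per gene, 81.6% of the nonzero ones whole (remainder 0), without normalization. They were rounded, and 2 transgene rows were left out.

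All 48 libraries entered 1 quasi-likelihood fit (edgeR 4.0.16 with limma 3.58.1, R 4.3.3) with a mean per group, TMM factors of 0.911 to 1.07, robust dispersions and the filterByExpr limits of 10 and 15 counts, which left 20009 genes and 32 residual degrees of freedom. The biological coefficient of variation was 4.2%. The 23 comparisons each used contrasts of group means, and FDR is the Benjamini-Hochberg value over all genes tested. The fit was tested on simulated counts. CPM is scaled by TMM, except in the sums of cell type markers, and lengths came from GENCODE release 29. Depth was 13.2 to 31.5 M counts, and the SE is printed beside the changes with the lowest p.

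The 39 genes, the other lists and the tests were chosen with earlier results of these data known. Named genes were those called, otherwise the 3 with the lowest p in a comparison, and CDK1, CCNB1, AURKA, PLK1, CDC20, TOP2A, MKI67 and FOXM1. Of other lists, up to 3 genes called or with the lowest p were named. Other members named, and the promoter window searched, were chosen after values were seen. Alternatives were library totals and upper quartile scaling, no filter, a mean of at least 1 CPM, DESeq2 1.42.0, a fit of only the libraries compared, a replicate block, and leaving out each library. The columns used were counts alone.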

Additional observations from a re-analysis of the deposited data

Results flagged for a closer look

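Differences between groups under the same contrast passed an FDR of 0.05 by the test of the difference itself in 5 places. The SNX631 change of Rv1-WT differed between CSS and FBS for 7 members, all lower in CSS (0.93% of tested genes lower, 2.2% higher). With vehicle, CSS acted differently on 21 members in Rv1-Luc than in Rv1-WT, among them MAD2L1 with a log2 difference of 0.60 and AURKA with −0.62. The SNX631 change differed between dKO-8 and dKO-8M for 4 members and between dKO-19 and dKO-19M for 5, in each case with the higher log2 value in the line with the active kinase. Of tested genes 2.59% were higher and 3.61% lower for the CDK8 pair, and 3.94% and 5.94% for the CDK19 pair. Between dKO-19 and dKO-8 the SNX631 change differed for 1 member, CDK1, where 2.03% of tested genes were higher in dKO-19 and 2.74% lower. That difference of CDK1 was lost without 6 of the 12 libraries in turn. No group had enough replicates for a search for single outlying values.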

How the results depend on the processing

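The direction of small changes that had not passed the threshold was not fixed. With SNX631 in Rv1-WT in CSS, CDK1 measured 144, 151 and 145 CPM with vehicle and 136, 150 and 150 CPM with SNX631. Its small fall thus rested on SNX631 replicate 1. Of the values of named members under alternatives, 4668 stayed on their side of the threshold, 414 lost it and 6 gained it. The count of called members stayed within 1.5 times in 360 cases and moved in 21, and the count past FDR 0.05 in 336 and 45. The median member change held in 323 cases and moved in 58. With library totals 11 medians moved and 12 held, and with upper quartile scaling 6 moved and 17 held. Library totals shifted all genes by a median log2 value of 0.0598 for CSS in Rv1-WT with vehicle, where the member median was −0.04. For SNX631 in dKO-19 that shift was 0.0524, where the member median was 0.13. With library totals as the scaling, called members went to 1 for CSS in Rv1-WT under SNX631, 1 for the combined comparison in Rv1-WT and 4 for the CSS difference between lines, and members past FDR 0.05 went to 9 for dKO-8 minus dKO-8M and 10 for dKO-19 minus dKO-19M. With upper quartile scaling the combined comparison gave 1 called, the CSS difference between lines 1 called and dKO-19 minus dKO-19M 9 past FDR 0.05. A mean of at least 1 CPM gave 1, 1 and 1 called for the same 3 comparisons of CSS as with library totals, and 8 and 9 past FDR 0.05 for the 2 kinase differences. No filter gave 3 for dKO-19 minus dKO-19M and 0 for dKO-19 minus dKO-8. DESeq2 gave 7 for dKO-8 minus dKO-8M. With only the libraries compared, dKO-8M went to 6, dKO-19M to 0, dKO-19M against dKO-19 to 8, the CSS difference between lines to 1 called, dKO-8 minus dKO-8M to 20, dKO-19 minus dKO-19M to 3 and dKO-19 minus dKO-8 to 3. Cause was not tested.

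Leaving out each library gave these ranges. Called members were 0 to 2 for SNX631 in Rv1-WT in CSS, 1 to 2 for CSS in Rv1-WT with vehicle (2 without CSS vehicle replicate 3), 1 to 2 under SNX631, 1 to 2 for the combined comparison, 0 to 1 for dKO-8M against dKO-8 and 1 to 2 for the CSS difference between lines. Members past FDR 0.05 were 0 to 4 for dKO-19M, 9 to 16 for CSS in Rv1-Luc with vehicle and 6 to 17 under SNX631, 4 to 6 for the serum dependence of SNX631 in Rv1-WT and 0 to 1 in Rv1-Luc, 1 to 5 for dKO-8 minus dKO-8M, 2 to 8 for dKO-19 minus dKO-19M and 0 to 1 for dKO-19 minus dKO-8.

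The replicate numbers were no pairing. The correlations of same-numbered libraries ran from −0.0933 to 0.295, and no comparison had every pair over 0.1. A replicate block changed by over 1.5 times 1 count alone, dKO-19M from 1 to 2. With 3 libraries a group, small changes that missed the threshold were not shown to be absent.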
